A study of Homo sapiens with 14 samples.

Results

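The genes described here are 41 transcripts that tell apart the basal-like and classical subtypes of pancreatic ductal adenocarcinoma. They were taken by name, VGLL1 to ITGB4 as 21 basal-like genes and BTNL8 to REG4 as 20 classical genes, and matched by symbol to 61541 annotated genes in a table of RNA read counts. All 41 were found. The RNA came from 6 libraries labelled BxPC-3, a line of human pancreatic cancer cells. Of these, 3 were labelled wild type with a control short hairpin (shControl) and 3 HDAC5 knockdown with a hairpin against HDAC5 (shHDAC5). HDAC5 is a class IIa histone deacetylase. GATA1, a zinc-finger transcription factor, was immunoprecipitated from PANC-1, a second pancreatic cancer line, with 2 immunoprecipitations and 2 inputs for each of the same conditions, wild type with shControl and HDAC5 knockdown with shHDAC5. All samples were labelled day 3. The series is about loss of HDAC5, GATA1 and arachidonic acid metabolism. The labels name neither the hairpin sequences nor separate cultures, so a p-value here reflects the spread among the 6 libraries alone, and that spread could be technical.

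Basal-like tumours express keratinocyte-type genes, among them stratified-epithelium keratins, small proline-rich proteins of the cornified envelope and the transcription factor p63, and they have the poorer outlook. Classical tumours keep a gastric and intestinal glandular program of trefoil factors, anterior gradient proteins and mucus-associated lectins, held in place by endodermal factors such as GATA6 and the HNF family. BxPC-3 is commonly used as a basal-like or squamous line.

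In these libraries the basal-like genes split, whereas almost all classical genes were at or near 0 in both groups. TP63, SCEL, DHRS9, CST6, CTSV and KRT15 were at least 7.14-fold higher in the shHDAC5-labelled libraries. TNS4, ANXA8L1, FAM83A, LY6D and ITGB4 were at least 4.98-fold lower. Of the classical genes, only VSIG2 and MYO1A had enough counts to test, and both were higher. VSIG2 had enough only in the shHDAC5-labelled libraries, so its direction was largely set by that requirement.

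The labels need care. HDAC5 stood higher under its own knockdown label, at 164 ± 4.44 CPM (counts per 1000000 library counts; SD, n = 3) against 94.9 ± 2.99 (log2 fold change 0.79, SE 0.0358, adjusted p = 3.95e-40, edgeR's quasi-likelihood test), so each direction below is between libraries as labelled. GATA1 was at 0.344 ± 0.093 CPM in the shControl-labelled libraries and 2.85 ± 0.438 in those labelled shHDAC5 (log2 fold change 3.02, SE 0.349, adjusted p = 1.43e-13). The libraries held 15179758 to 17854340 counts. At that depth the share of 19144 annotated coding genes with any count was 75.1 to 75.6% under the shControl label and 87.1 to 87.4% under the shHDAC5 label. Pearson correlations of log2(CPM + 1) over genes were at least 0.996 within a label and at most 0.862 between labels. Of 10 duct epithelium markers, KRT8 and KRT18 were abundant at 717 and 404 CPM in the shControl-labelled libraries, but KRT19, a defining duct keratin, had 6 counts over all 6 libraries, and EPCAM and CDH1 stayed under 2 CPM on average in both groups. The name BxPC-3 is therefore used here as a label, and the identity of the line was not tested. Between the labels KRT8 rose to 1010 CPM, while MUC1 fell from 166 to 11.3 CPM and KRT7 from 371 to 25.3 CPM. The summed level of the 10 markers was 1687 to 1724 CPM against 1384 to 1450 CPM. Other marker lists were summed in the same way. The 5 stratified squamous markers, mostly TP63, went from 0.21 to 0.845 CPM to 13.5 to 17.1 CPM. The 5 gastric markers, mostly MUC6 and MUC5AC, went from 1.39 to 2.12 CPM to 8.67 to 12.2 CPM. The 5 intestinal markers, mostly VIL1 in the shHDAC5-labelled libraries, went from 0 to 0.515 CPM to 1.45 to 1.83 CPM. The 6 erythroid markers went from 0.121 to 0.386 CPM to 6.53 to 9.17 CPM, mostly HBB (0 against 268 counts, at least 79.4-fold higher). The 5 acinar markers, mostly CTRB1, went from 0 to 0.193 CPM to 1.72 to 2.46 CPM. The 5 endothelial markers went from 1.21 to 1.74 CPM to 3.66 to 4.35 CPM, with most of the rise in VWF. The 6 leukocyte markers were at 6.22 to 7.34 CPM against 4.43 to 5.32 CPM, and 8 fibroblast markers, mostly COL1A1, were at 121 to 131 CPM against 85.8 to 91.2 CPM. The part of these lists in the results below was not tested.

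Among the 21 basal-like genes, 13 passed a filter on low counts and were tested. Of these, 8 rose and 5 fell at an adjusted p under 0.05. TP63, SCEL, DHRS9 and CST6 passed the filter only through their counts in the shHDAC5-labelled libraries. LY6D passed it only through the shControl-labelled libraries. The direction of those calls was thus largely set by the filter. Over all 19181 genes tested, 44.8% were called higher and 39.9% lower, so a call in either direction was the common outcome. At 2-fold or more, 6 of the 13 were higher and 5 lower, against 26.4% and 20.1% of all tested genes. The 2 groups of libraries did not overlap for any of the 13, which held for 84.8% of all tested genes. The median log2 fold change of the 13 was 0.52, and that of all tested genes was 0.09. The sign of the former turned with the filter, to -0.83 where 10 counts were asked of every library, and it was 1.79 without a filter. Under the same settings the median of all tested genes was -0.00 and 0.68.

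**Figure D1:**
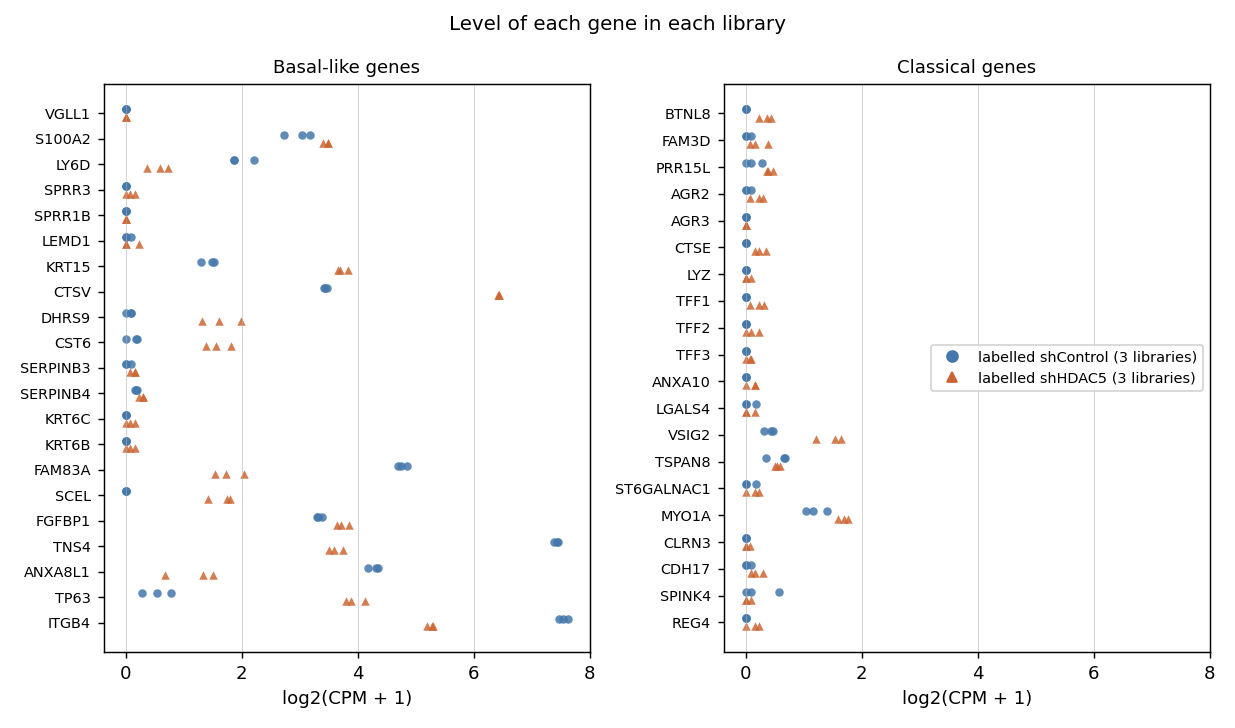
Level of each of the 41 genes in each of the 6 libraries, as log2(CPM + 1); one point is one library, with circles for the label shControl and triangles for shHDAC5. The basal-like genes spread from 0 to 196 CPM and separate in both directions, while the classical genes sit at or under 2.4 CPM.

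TP63 encodes p63, the transcription factor that specifies basal cells of stratified epithelia. The gene (ENSG00000073282) spans chromosome 3, 189596746 to 189897276 (GRCh38). It was read at 0.451, 0.21 and 0.724 CPM in the shControl-labelled libraries and at 13.8, 16.4 and 12.9 CPM in those labelled shHDAC5. The lowest of the latter was far above the highest of the former. The mean rose from 0.461 ± 0.257 to 14.3 ± 1.82 CPM (SD, n = 3), 31.1-fold in mean CPM, with a log2 fold change of 4.90 (SE 0.213, adjusted p = 9.11e-42). In such bulk libraries fewer cells of a type and less RNA per cell cannot be told apart. The counts are per gene, so the isoforms with and without the transactivation domain cannot be told apart.

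CTSV, which encodes cathepsin V, a lysosomal cysteine protease of thymus and skin, reached the highest level of the rising genes. The gene (ENSG00000136943) is on chromosome 9, 97029677 to 97039643. Its values were 9.65, 10.1 and 9.78 CPM against 84.7, 85.3 and 86 CPM. Replicates lay within 1 CPM of the mean in both groups, and the rise was 8.66-fold (log2 fold change 3.11, SE 0.0654, adjusted p = 5.98e-71). KRT15, a keratin of the basal layer of stratified epithelium, read 1.87, 1.47 and 1.81 CPM against 11.6, 13.2 and 11.9 CPM. It rose 7.14-fold (log2 fold change 2.82, SE 0.164, adjusted p = 1.22e-31).

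SCEL, DHRS9 and CST6 started from almost nothing. SCEL encodes sciellin, a precursor of the cornified envelope of keratinocytes. The gene (ENSG00000136155) is on chromosome 13, 77535706 to 77645263. It had no count in any shControl-labelled library and was at 2.36, 2.46 and 1.68 CPM in those labelled shHDAC5. Set against a floor of 3 counts over the shControl group, its mean of 2.17 ± 0.428 CPM was at least 33.5-fold higher (adjusted p = 4.4e-17). DHRS9, a short-chain dehydrogenase that acts on retinoids and steroids, had 2 counts over the shControl-labelled libraries and 114 over those labelled shHDAC5. After adjustment for depth the ratio was 50.6, with a 95% exact binomial interval of 13.7 to 423 that covers counting error only (adjusted p = 2.22e-15). CST6, which encodes cystatin M, an epidermal inhibitor of cathepsins that include cathepsin V, was at 0.129, 0.14 and 0 CPM against 1.6, 1.95 and 2.52 CPM. Its rise was 22.6-fold (log2 fold change 4.44, SE 0.51, adjusted p = 1.15e-13), on 4 counts in the lower group. CTSV and CST6, a protease and an inhibitor of it, were thus both higher.

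S100A2 and FGFBP1 moved least. S100A2, a calcium-binding protein of basal epithelial cells, was at 5.66, 7.2 and 8.03 CPM against 10.2, 9.62 and 10.2 CPM. Its log2 fold change was 0.52 (SE 0.126, adjusted p = 0.000104). FGFBP1 encodes a secreted carrier that releases fibroblast growth factors from the matrix. It was at 8.95, 9.5 and 8.87 CPM against 11.5, 12.1 and 13.5 CPM, a log2 fold change of 0.45 (SE 0.111, adjusted p = 0.000161). In both genes every library labelled shHDAC5 lay above every shControl-labelled library.

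Promoter sequence shows a feature shared by several of the basal-like genes that the choice of genes did not use. AP-1, the dimer of FOS and JUN proteins that drives many keratinocyte genes, binds TGACTCA, which on the opposite strand reads TGAGTCA. In the RefSeq promoter table (GRCh38.p14), 25 of the 41 genes had an entry, 13 basal-like and 12 classical. Within 250 bases upstream of any listed start, this motif was found on either strand in 5 of the 13 basal-like genes (38.5%). It was found in 0 of the 12 classical genes, and in 5.19% of 27305 genes with an entry. The 27305 outnumber the 20037 coding genes, so this background is not limited to coding genes as the 41 are. They have 35116 windows, and a gene with more listed starts had more windows in which to match. The stretches are shown because 3 of their genes rose and the other 2, both from the small proline-rich family, were almost silent. Each reads 5′ to 3′ on the gene's strand, with the AP-1 letters in capitals. SCEL is chr13:77535456-77535705 (plus strand), S100A2 chr1:153565845-153566094 (minus), DHRS9 chr2:169069504-169069533 (plus, 30 bases around the match at an inner start), SPRR3 chr1:153001499-153001748 (plus) and SPRR1B chr1:153030953-153031202 (plus).
SCEL: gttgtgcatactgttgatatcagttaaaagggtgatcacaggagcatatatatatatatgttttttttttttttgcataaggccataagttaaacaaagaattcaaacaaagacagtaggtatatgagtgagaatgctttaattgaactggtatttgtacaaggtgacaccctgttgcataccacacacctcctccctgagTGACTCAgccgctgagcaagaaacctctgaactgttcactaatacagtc
S100A2: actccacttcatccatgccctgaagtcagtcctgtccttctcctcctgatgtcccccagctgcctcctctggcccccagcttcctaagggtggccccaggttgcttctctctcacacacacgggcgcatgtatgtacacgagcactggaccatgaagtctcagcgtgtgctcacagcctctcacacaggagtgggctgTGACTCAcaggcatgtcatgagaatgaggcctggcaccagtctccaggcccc
DHRS9: cacaatgggagTGACTCAcagagcaaggag
SPRR3: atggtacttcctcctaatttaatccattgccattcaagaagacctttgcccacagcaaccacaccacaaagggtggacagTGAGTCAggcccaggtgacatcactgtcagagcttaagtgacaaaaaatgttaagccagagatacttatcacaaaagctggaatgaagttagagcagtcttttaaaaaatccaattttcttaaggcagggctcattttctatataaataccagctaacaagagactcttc
SPRR1B: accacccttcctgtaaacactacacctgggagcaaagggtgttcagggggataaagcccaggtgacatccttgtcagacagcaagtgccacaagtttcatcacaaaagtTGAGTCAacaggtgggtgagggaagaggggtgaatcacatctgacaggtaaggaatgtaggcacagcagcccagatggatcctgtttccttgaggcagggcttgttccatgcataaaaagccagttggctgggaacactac
The match lay 49, 52 and 48 bases upstream of the start in SCEL, S100A2 and DHRS9, and 141 and 170 bases upstream in SPRR1B and SPRR3. A match is a description of the letters and shows no binding. The motif was therefore near the start of genes that rose and also upstream of genes with 0 and 3 counts. TP63, CTSV and FGFBP1, which also rose, had an entry and no match, and KRT15 and CST6 had no entry. Of the genes that fell, ANXA8L1 had an entry and no match. TNS4, ITGB4, FAM83A and LY6D had no entry and could not be searched, so rising and falling genes cannot be compared for the motif.

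The 5 falls ran from TNS4, at -3.93 on the log2 scale, to ITGB4, at -2.32. TNS4 encodes a short tensin of focal adhesions that lacks the actin-binding part of its relatives. The gene (ENSG00000131746) is on chromosome 17, 40475834 to 40501623. It was at 174, 166 and 173 CPM against 12.4, 10.4 and 11 CPM. The fall was 15.2-fold (log2 fold change -3.93, SE 0.0538, adjusted p = 4.86e-89). ITGB4, the integrin subunit that joins integrin α6 in hemidesmosomes (ENSG00000132470, chromosome 17, 75721459 to 75757818), was at 196, 177 and 186 CPM against 38.6, 35.6 and 38.1 CPM. It was 4.98-fold lower (log2 fold change -2.32, SE 0.0424, adjusted p = 9.12e-77). FAM83A, a scaffold linked to signalling downstream of the EGF receptor, was at 24.8, 27.9 and 26 CPM against 2.31, 3.09 and 1.9 CPM. The difference was 10.8-fold (log2 fold change -3.43, SE 0.125, adjusted p = 1.65e-48). In all 3 genes the lowest library labelled shControl lay well above the highest labelled shHDAC5.

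ANXA8L1 encodes an annexin, a calcium-dependent membrane-binding protein, and is nearly identical to its neighbour ANXA8, so reads can be split between them. ANXA8L1 was at 19.3, 17.1 and 18.8 CPM against 0.591, 1.83 and 1.51 CPM (14.1-fold lower, log2 fold change -3.80, SE 0.161, adjusted p = 8.57e-43). ANXA8, named here after its values were seen, fell alongside from 27.6 ± 0.25 to 3.42 ± 0.604 CPM (log2 fold change -3.01, adjusted p = 2.4e-47). LY6D, a surface protein of stratified epithelium anchored by a lipid, was at 2.64, 2.65 and 3.62 CPM against 0.65, 0.286 and 0.503 CPM. It fell 6.19-fold (log2 fold change -2.62, SE 0.321, adjusted p = 1.56e-12).

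**Figure D2:**
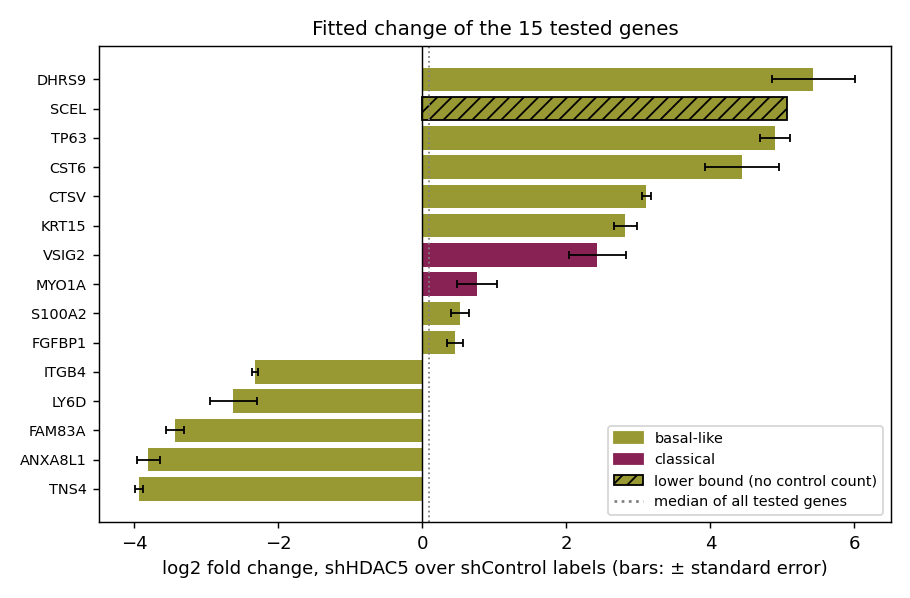
Fitted log2 fold change of the 15 tested genes, libraries labelled shHDAC5 over shControl, with bars for ± 1 standard error; the hatched bar of SCEL is a lower bound, and the dotted line is the median of all tested genes, 0.09. Values run from -3.93 for TNS4 to 5.43 for DHRS9, and basal-like genes stand at both ends.

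The summed basal-like level was carried by few genes. The 21 genes summed to 420 to 443 CPM in the shControl-labelled libraries and 193 to 195 CPM in those labelled shHDAC5. TNS4 and ITGB4 made up 81.8 to 83.4% of the sum in the former and 23.6 to 26.5% in the latter. Without them, the sum was 73.8 to 77.8 CPM against 142 to 149 CPM. CTSV made up that difference: without it as well, the sum was 64.1 to 68 CPM against 56.9 to 63.4 CPM. These genes were set apart after their changes were seen. Per kilobase of gene model, the order in the shControl-labelled libraries was TNS4 (35.1 ± 0.831 CPM per kb), ITGB4 (27.5 ± 1.39), FGFBP1 (6.74 ± 0.255) and ANXA8L1 (6.44 ± 0.403), the last 2 within their spread of each other. S100A2 (4.5 ± 0.776) and FAM83A (4.15 ± 0.249) followed, also within their spread. In the shHDAC5-labelled libraries it was CTSV (11.6 ± 0.0883 CPM per kb), FGFBP1 (9.16 ± 0.766), S100A2 (6.47 ± 0.218), ITGB4 (5.54 ± 0.242) and CST6 (3.41 ± 0.784). TNS4 was the sixth there at 2.31 ± 0.208 CPM per kb.

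**Figure D3:**
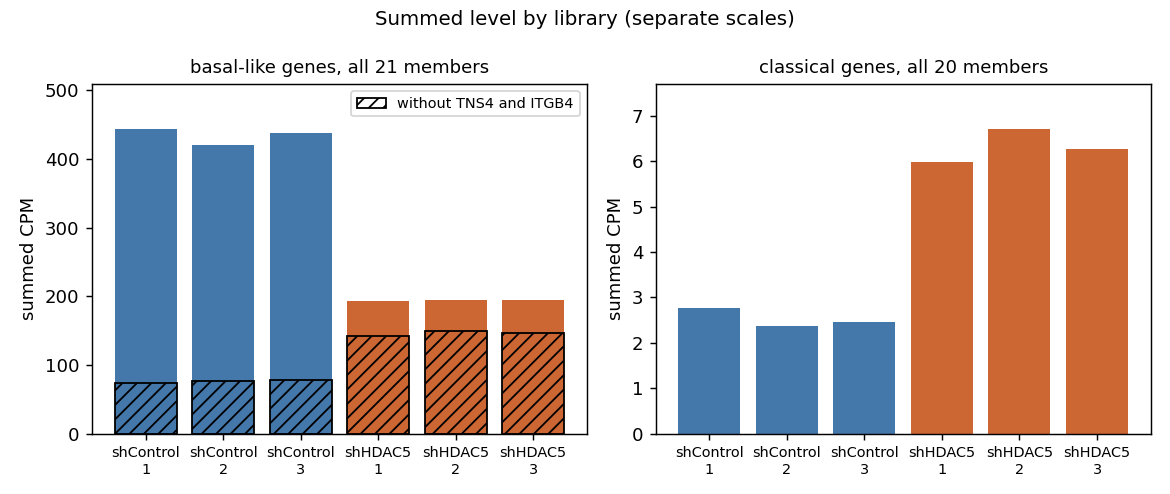
Summed levels of the basal-like and the classical genes in each of the 6 libraries, in CPM on separate scales; hatched bars give the basal-like sum without TNS4 and ITGB4. The basal-like sum falls from 420 to 443 CPM to 193 to 195 CPM while the part without TNS4 and ITGB4 goes from 73.8 to 77.8 CPM to 142 to 149 CPM, a difference made up by CTSV, and the classical sum rises to at most 6.7 CPM.

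The other 8 basal-like genes were too low to test, with at most 0.211 CPM on average in either group. VGLL1, a cofactor of TEAD transcription factors, and SPRR1B had no count in any of the 6 libraries. SPRR3 had 0 against 3 counts over the libraries of each label. KRT6B and KRT6C, keratins of activated keratinocytes that are near-identical to KRT6A and can share reads with it, each had 0 against 3. LEMD1, a cancer/testis gene, had 1 against 3. SERPINB3 and SERPINB4, near-identical serpins known as squamous cell carcinoma antigens, had 1 against 5 and 6 against 11. The highest value of the 8 in a single library was 0.236 CPM, for SERPINB4, in a library in which TP63 was at 13.8 CPM.

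Only 2 of the 20 classical genes were tested, whereas 71.6% of annotated coding genes passed the same filter. VSIG2, an immunoglobulin-domain membrane protein of stomach and colon (ENSG00000019102, chromosome 11, 124747474 to 124752255), was at 0.386, 0.349 and 0.241 CPM against 1.3, 2.12 and 1.9 CPM. It rose 5.45-fold (log2 fold change 2.43, SE 0.393, adjusted p = 2.19e-08), and it passed the filter only through the shHDAC5-labelled libraries. MYO1A, the brush border myosin of enterocytes (ENSG00000166866, chromosome 12, 57028517 to 57051198), was at 1.22, 1.05 and 1.63 CPM against 2.01, 2.4 and 2.24 CPM. Its rise was 1.71-fold (log2 fold change 0.76, SE 0.272, adjusted p = 0.00821), and without shControl replicate 2 it was 0.61 on the log2 scale and missed the threshold (adjusted p = 0.0545). Both genes were separate between the labels, as were 84.8% of all tested genes.

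The remaining 18 classical genes had at most 0.487 CPM on average in either group. The trefoil factors, secreted peptides that protect mucosa, were at 0 in every shControl-labelled library, and TFF1, TFF2 and TFF3 had 8, 4 and 2 counts over the shHDAC5-labelled libraries. AGR2, a protein disulfide isomerase of mucus-secreting cells, had 1 against 8 counts, and its relative AGR3 had none. Against the floor of 3 counts, BTNL8, a butyrophilin-like protein of gut epithelium, was at least 4.17-fold higher on 0 against 14 counts. CTSE, the gastric aspartic protease cathepsin E, was at least 2.95-fold higher on 0 against 10. TFF1 was at least 2.38-fold higher, REG4, a lectin of enteroendocrine and goblet cells, at least 1.46-fold on 0 against 5, and TFF2 and ANXA10, a gastric annexin, at least 1.19-fold on 0 against 4 each.

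Several classical genes had a few counts in both groups. FAM3D, a gut-secreted cytokine-like protein, had 1 against 8 counts, the same as AGR2, a ratio of 7.1 after adjustment for depth (95% exact interval 0.952 to 315). CDH17, the liver-intestine cadherin, had 1 against 7 (ratio 6.22, 0.799 to 280), and ST6GALNAC1, the sialyltransferase that makes sialyl-Tn, had 2 against 5 (ratio 2.22, 0.363 to 23.3). These 4 intervals include a ratio of 1. PRR15L had 4 against 17 counts. TSPAN8, a tetraspanin of gastrointestinal tumours, had the most counts of the untested genes, 23 against 24. LGALS4, an intestinal galectin, had 2 against 2, and LYZ (lysozyme) and CLRN3 each 0 against 1. SPINK4, a goblet cell protease inhibitor, was the one classical gene with fewer counts in the shHDAC5-labelled libraries, 8 (1, 7 and 0 by library) against 1, with 7 of the 8 in shControl replicate 2.

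The count of classical genes detected was 10, 5 and 3 of 20 in the shControl-labelled libraries and 17, 13 and 14 in those labelled shHDAC5. For the basal-like genes it was 14, 13 and 12 of 21 against 18, 16 and 18. All coding genes moved the same way, from 75.1 to 75.6% with a count to 87.1 to 87.4%, and what part of the rise in the classical genes this general gain makes up was not tested. Summed counts over the 20 classical genes were 43, 34 and 41 against 101, 117 and 112. Without VSIG2 and MYO1A they were 18, 14 and 10 against 45, 38 and 38. The mean of log2(CPM + 1) was 1.82 ± 0.0237 against 1.87 ± 0.0219 for the basal-like genes and 0.14 ± 0.0174 against 0.31 ± 0.00795 for the classical genes (SD, n = 3). Their difference was 1.68 ± 0.0369 in the shControl-labelled libraries and 1.56 ± 0.026 in those labelled shHDAC5. That change of -0.12 turned to 0.10 when genes that can share reads with a close relative were left out. These were SERPINB3, SERPINB4, KRT6B, KRT6C, ANXA8L1, SPRR3 and SPRR1B. Of them only ANXA8L1 averaged above 0.211 CPM in either group, and it fell from 18.4 to 1.31 CPM. The direction of the change thus depends on this set, in which ANXA8L1 is the one gene well above 0. Leaving out ANXA8L1 alone was not tested.

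A GATA motif was counted in the same windows, since GATA6 belongs to the classical program and GATA1 was the protein immunoprecipitated. It was searched as GATAA, which on the opposite strand reads TTATC. It was present within 250 bases upstream in 9 of the 12 classical genes with an entry (75%) and in 4 of the 13 basal-like genes (30.8%). Of all genes with an entry, coding or not, 24.2% had it. The classical genes with a match were BTNL8, AGR2, CTSE, ANXA10, LGALS4, TSPAN8, MYO1A, SPINK4 and REG4. The TEAD motif GGAATG, which on the opposite strand reads CATTCC, was in 5 of 13 basal-like genes (38.5%, the same share as AP-1). It was in 2 of 12 classical genes (16.7%) and in 14.3% of all. The basal-like genes with it were VGLL1 and the related pairs SPRR3 with SPRR1B and SERPINB3 with SERPINB4. Shown with the match in capitals are MYO1A, which rose (chr12:57051199-57051448, minus strand), CTSE (chr1:206023896-206024145, minus), and SPINK4, which has the motif in tandem and had fewer counts (chr9:33239917-33240166, plus). The last 2 windows each overlapped a GATA1 peak short of the authors' q of 0.05, CTSE in the list labelled shControl (fold 2.99, −log10 q 0.222) and SPINK4 in the list labelled shHDAC5 (fold 3, −log10 q 0.117).
MYO1A: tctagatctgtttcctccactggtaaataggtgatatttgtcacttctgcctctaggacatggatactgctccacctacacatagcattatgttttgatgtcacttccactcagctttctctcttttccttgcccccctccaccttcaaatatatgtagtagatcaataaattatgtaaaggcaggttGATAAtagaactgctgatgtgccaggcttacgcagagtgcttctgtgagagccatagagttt
CTSE: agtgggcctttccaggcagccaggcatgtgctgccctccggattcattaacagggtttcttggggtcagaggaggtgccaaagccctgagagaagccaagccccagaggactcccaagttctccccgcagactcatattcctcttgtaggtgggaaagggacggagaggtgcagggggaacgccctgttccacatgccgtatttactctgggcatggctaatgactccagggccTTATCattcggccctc
SPINK4: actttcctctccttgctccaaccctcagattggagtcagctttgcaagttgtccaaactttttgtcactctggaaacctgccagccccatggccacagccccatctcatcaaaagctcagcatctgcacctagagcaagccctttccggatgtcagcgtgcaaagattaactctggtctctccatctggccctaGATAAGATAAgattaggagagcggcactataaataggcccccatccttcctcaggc
Of the 9 classical genes with the letters, MYO1A was the one tested.

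Other signature genes of the 2 subtypes did not follow a single direction either. Among 7 further basal-like signature genes, 3 rose, 2 fell and 2 were too low to test, against 44.8% higher and 39.9% lower over all tested genes. UCA1, a long noncoding RNA known from bladder cancer, went from 0 counts to 32 ± 2.06 CPM, at least 495-fold, and AREG, the EGF receptor ligand amphiregulin, from 9.9 ± 0.369 to 651 ± 17.1 CPM. KRT17 rose from 824 to 2129 CPM, and KRT7 fell from 371 to 25.3 CPM. Of 4 further classical signature genes, CEACAM6, a surface adhesion molecule, went from 0 counts to 8.39 ± 0.661 CPM, at least 130-fold, and KRT20, an intestinal keratin, fell from 4.12 ± 0.173 to 0.0967 ± 0.0879 CPM.

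Of 12 regulators linked to the basal-like or squamous state, 5 rose and 7 fell, against 44.8% and 39.9% of all tested genes. MYC fell from 558 ± 5.67 to 34.2 ± 1.43 CPM, EGFR from 401 to 203 CPM and ZEB1 from 61.8 to 33.2 CPM, while NFE2L3 rose from 2.15 to 26.0 CPM. Of 15 regulators linked to the classical state, 9 were tested, 8 fell and 1, SPDEF, rose from 2.95 to 7.27 CPM. HNF4G fell from 2.66 ± 0.212 to 0.173 ± 0.119 CPM, ELF3 from 91.4 to 63.4 CPM and KLF4 from 199 to 149 CPM. GATA6, named after its values were seen, fell from 11.3 ± 0.96 to 4.7 ± 1.03 CPM (log2 fold change -1.26, adjusted p = 4.27e-15). The median log2 fold change was -0.70 over the 12 and -1.26 over the 9, beside 0.09 over all tested genes. One fewer classical regulator was called lower when libraries were scaled by upper quartiles or by total counts.

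Of 8 hemidesmosome and laminin-332 genes, 3 rose, 4 fell and COL17A1 did not pass the test, against 44.8% higher and 39.9% lower over all tested genes. ITGA6, the α6 subunit that pairs with ITGB4, rose from 122 ± 2.56 to 229 ± 3.74 CPM, and PLEC (plectin, which links the complex to keratins) from 1045 to 1839 CPM. DST, a second plakin linker, fell from 360 to 225 CPM and CD151, a tetraspanin partner, from 176 to 101 CPM. LAMB3 was almost level at 227 and 215 CPM, and its sign depended on the scaling (log2 fold change -0.08 as fitted and 0.11 under total counts).

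Of 18 genes of squamous differentiation, listed to set beside TP63, 8 were tested, 5 rose, 2 fell and TGM1 did not pass, and 1 fell under upper-quartile factors, total counts or DESeq2, the last of which called 4 higher. PI3, the protease inhibitor elafin, had 1 count against 487, at 9.31 ± 0.945 CPM in the shHDAC5-labelled libraries, SFN rose from 110 to 142 CPM, and KRT13 went from 0.0416 to 1.07 CPM. LYPD3 fell by 0.45 on the log2 scale to 73.1 CPM. KRT5, KRT14, DSG3 and IVL, which with TP63 make up the stratified squamous markers, averaged at most 0.306 CPM in either group. Of 16 gastric and intestinal mucous epithelium genes, 7 were tested, 4 rose, 2 fell and 1, GCNT3, did not pass. The counts of this list and of the squamous list stand beside 44.8% called higher and 39.9% lower over all tested genes. MUC13 fell from 266 ± 3.59 to 17.2 ± 0.629 CPM, while the gastric mucins rose, MUC6 from 1.11 to 7.65 CPM and MUC5AC from 0.527 to 2.62 CPM. The gastric markers TFF1, TFF2 and GKN1 averaged at most 0.154 CPM in either group.

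**Figure D4:**
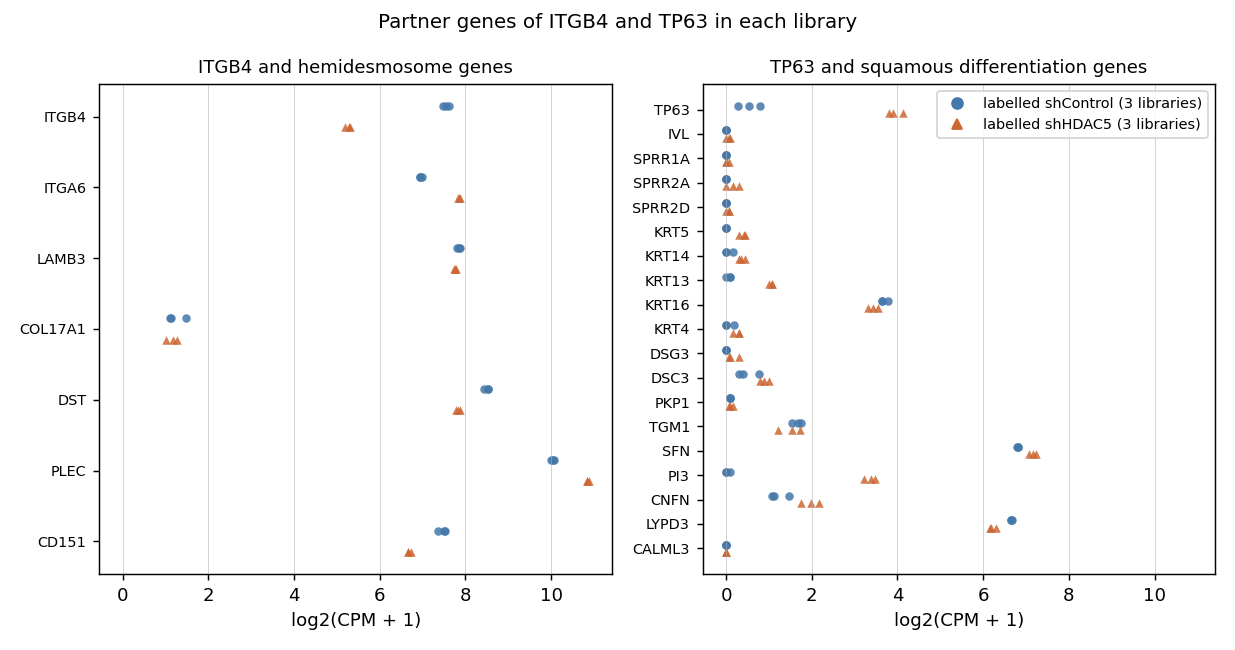
Levels of 6 hemidesmosome and laminin-332 genes beside ITGB4, and of squamous differentiation genes beside TP63, in each of the 6 libraries, as log2(CPM + 1). ITGA6 and PLEC lie higher in the shHDAC5-labelled libraries while ITGB4 lies lower, and KRT5, KRT14 and DSG3 stay near the bottom of the scale where TP63 is at 12.9 to 16.4 CPM.

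GATA1 peaks in PANC-1 lay near most of the 41 genes, and near most coding genes. The deposited list labelled shControl holds 121070 peaks and the list labelled shHDAC5 249139, and 6176 (5.1%) and 1045 (0.419%) of them reach the authors' q of at most 0.05. The list called shControl here is titled NC, and the names written inside the lists go against their labels. Peaks in the list labelled shControl carry a SAHA prefix, a word in no sample title. Those in the list labelled shHDAC5 carry an NC prefix, the title of the other list. Which condition each list holds is therefore uncertain. There was 1 list per condition and so no replicate check. A summit lay within 10 kb of 29 of the 41 genes (70.7%) in the list labelled shControl and of 39 (95.1%) in the list labelled shHDAC5, against 82.7% and 92.6% of 20037 coding genes. Within 1 kb it was 22 genes (against 74%) and 28 (against 77.2%), and within 50 kb all 41 in each list (against 93.6% and 98.2%). At a q of at most 0.05 the counts were 5 genes (12.2%, against 17.6%) and 0 genes (against 2.27%). Within the 300 bases around a listed start, a peak overlapped 5 and 4 of the 25 genes with an entry. Of all genes with an entry, coding or not, it overlapped 22.2% and 9.1%.

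The 5 genes with a peak at that threshold were CST6, FAM83A, TP63, ITGB4 and LGALS4, all in the list labelled shControl. The fold enrichments are the authors' own values per peak (hg38). The TP63 peak, at chr3:189596203-189596584, had its summit 352 bases before the outermost start of the gene, with a fold enrichment of 4.31 and a −log10 q of 1.87. In ITGB4 the peak lay inside the gene, at chr17:75723161-75723679, with its summit 2031 bases above the gene's lower coordinate (fold 4.36, −log10 q 1.8). For CST6 it was at chr11:66008534-66008971, 3249 bases outside the gene (fold 3.79, −log10 q 1.31). FAM83A had one inside the gene at chr8:123207246-123207809 (fold 5.98, −log10 q 4.55). In RNA from the other line, TP63 and CST6 rose and FAM83A and ITGB4 fell.

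LGALS4 had 8 such peaks within 10 kb, the highest at chr19:38792291-38793025 (fold 5.86, −log10 q 8.5) and one across the gene's upper end at chr19:38812561-38813282 (fold 3.62, −log10 q 3.23). The density was not special to the gene. Within 500 kb on either side there were 144 such peaks, 142 per megabase, against 10.8 per megabase over all of chromosome 19. In the list labelled shHDAC5 the same region had 4, or 3.96 per megabase against 0.84 over the chromosome. LGALS4 had 2 counts in each RNA group.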

How the data were processed

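RNA was measured in 6 libraries and GATA1 binding in 8 samples; groups follow the labelled treatment. The authors deposited whole-number read counts per Ensembl gene with gene lengths, and 1 peak list per condition with a fold enrichment (a ratio) and a −log10 q per peak. Of tools, the submitters' processing notes list featureCounts 2.0.1 and MACS2 2.2.7.1, and the build hg38, with no role. No aligner or strand setting is stated, so reads of antisense, overlapping or near-identical genes may be shared.

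Genes passing edgeR's filter were scaled by TMM and tested by group with edgeR's quasi-likelihood test (edgeR 4.0.16, R 4.3.3), with Benjamini-Hochberg adjustment over all 19181 genes tested and a threshold of 0.05. CPM use TMM-scaled library sizes. Standard errors were taken as |log2 fold change| divided by √F. Folds from 0 use 3 counts over the group. Exact 95% intervals cover counting error only. Medians use fitted values. The script was tested on simulated data. Gene positions and promoter sequences came from RefSeq tables of GRCh38.p14. Alternatives were DESeq2 1.42.0, other scalings, filters, pseudocounts, thresholds and peak windows, the replicate number as a block, and leaving out each library.

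The members, lists and tests were chosen with earlier results of these data known. Named genes are HDAC5, GATA1, all 41 members, up to 4 called genes per context list with the smallest adjusted p, and the cell type markers. ANXA8, GATA6, COL17A1, LAMB3, TGM1, GCNT3 and the untested genes of context lists were named after their values were seen. A few genes named by this rule, or shown by a list, were left out of the text. Inputs were not analysed here.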

Additional observations from a re-analysis of the deposited data

How the results depend on the processing

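Of 189 recomputed fold changes of the 15 tested genes, 188 kept their direction and their side of the threshold, and 1 (MYO1A without shControl replicate 2, 0.61 on the log2 scale, adjusted p = 0.0545) missed it; none reversed. The count of basal-like genes called higher was 8 of 13 tested, and 4 of 8 when 10 counts were asked of every library. Over all genes it was 8597 of 19181 and 6248 of 14789. For the classical genes the count called higher was 2 of 2, then 5 of 19 without a filter (CTSE, BTNL8 and TFF1 in addition). Without a filter, 11313 of 41231 of all genes were called higher. The classical count was 1 of 1 at 10 counts in every library, 1 at 2-fold, and 1 to 2 when each library was left out. No classical gene was called lower by edgeR or DESeq2; without a filter, SPINK4 was lower at an unadjusted p of 0.0453 (edgeR, adjusted p = 0.088). Over all genes, 5071 were called higher and 3846 lower at 2-fold.

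The median log2 fold change of the basal-like genes, 0.52, was 1.79 without a filter and reversed to -0.83 with 10 counts in every library, which removes genes that rose from near 0. The classical median of 1.59 was 1.73 with upper-quartile factors, 1.78 with total counts, 2.39 without a filter and 0.86 with 10 counts in every library. The median of all genes was 0.09, 0.12 with DESeq2's size factors, 0.23 with upper-quartile factors and 0.27 with total counts. It was 0.68 without a filter and -0.00 with 10 counts in every library. The change in the basal-like minus classical level, -0.12, was -0.20 with a pseudocount of 0.1 and -0.06 with total counts. It reversed to 0.10 without the genes that can share reads, ANXA8L1 among them. Genes with a peak fell to 5 and 0 at the authors' q of at most 0.05.

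With the replicate number as a block, 8 basal-like genes were called higher and 5 lower, and 2 classical genes higher, the same counts as without it, and 8514 and 7558 of all genes. Same-numbered libraries correlated at -0.0165, 0.00165 and 0.0116 in their deviations, so the numbers are not shown to pair them. Genes under about 3 counts per group are limited by depth, and 2 immunoprecipitations per list give no replicate check of peaks.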
